A study of Drosophila melanogaster with 12 samples.

Results

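The comparison described here set cells that carry the ph505 mutation and had passed through metamorphosis against tumours of the same genotype that had not. Of the 12 samples of the series, 9 belong to it by their labels, with 3 samples of metamorphed cells and 6 of tumours. All 9 carry ph505, an X-linked allele that removes the function of ph-p and ph-d, a pair of adjacent genes whose product is Polyhomeotic, of the Polycomb group. The mutant cells are GFP-marked MARCM clones (mosaic analysis with a repressible cell marker) on an FRT19A chromosome, with ey-flp as the source of recombinase. The tumours started as larval eye-antennal disc tissue and were transplanted every week into the abdomen of adult w1118 females, and they were sampled after 4, 8 and 14 weeks, with 2 samples at each age. The metamorphed cells, labelled as a non tumorigenic adult clone, were taken from adult flies that developed from larvae with such clones. The study's text gives no adult age for these RNA samples. Since ey-flp is also active in the leg and genital discs, marked adult cells need not come from the eye-antennal disc, and the sources used here do not name the body part. Neither group was a purified cell type, and RNA was collected separately for each sample. Wild-type cells that had gone through metamorphosis were not analysed here, and only the tumours were transplanted. The study cites earlier evidence that transplantation by itself changes the expression of a number of genes. The passage through metamorphosis, the repeated transplantation, the surroundings in the body and the age of the tissue thus cannot be told apart.

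Metamorphosis turns larval imaginal discs into adult epidermis and eyes under pulses of the steroid hormone ecdysone. The hormone binds a heterodimer of EcR and Usp, which switches on a cascade of nuclear receptors and other transcription factors. Among the factors that time metamorphosis, Chinmo and Abrupt belong to the larval programme, while Eip93F (E93) acts in the pupal and adult one. Polycomb group proteins such as Polyhomeotic keep Hox genes and many other developmental regulators silent in cells where they do not belong.

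The unit is CPM, the reads on a gene per 1000000 reads after the library scaling of the authors. Reads on genes ranged from 16619078 to 24144498 over the 6 tumours and from 66046651 to 81447816 over the 3 metamorphed samples. A gene with 3 reads, taken as the floor of detection, stood between 0.121 and 0.203 CPM in the tumours and between 0.042 and 0.0535 CPM in the metamorphed samples, and this floor covers counting error only. The metamorphed libraries were run on another instrument than the tumour libraries, so the effect of the instrument cannot be told apart from that of the group. Among the tumours, replicate 2 of the 14-week age stood apart. Its relative normalization factor was 0.61 against 0.97 to 1.15 in the other tumours, and FBgn0085364, an identifier without a symbol in the annotation, took 13.7% of its reads against 3.11% to 5.94%.

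Marker genes of cell types that the dissected material could hold moved with the comparison. The summed level of 13 photoreceptor genes was 50.6 to 97.8 CPM in the tumours and 1442, 2620.4 and 558 CPM in metamorphed samples 1, 2 and 3, with 5 of the genes, ninaE among them, at 0 reads in all tumours. Most of the tumour sum was norpA, at 47.5 to 91.2 CPM, against 53.2, 66.97 and 40.7 CPM in the metamorphed samples. The 7 fat body and oenocyte genes summed to 403 to 846 CPM in the tumours and to 11328, 3257 and 4583 CPM in the metamorphed samples. Nearly all of the tumour sum was Desat1, at 389 to 845 CPM, against 1862, 1615 and 1346 CPM in the metamorphed samples. The yolk protein gene Yp2 took 5433, 601 and 1565 CPM of the metamorphed sums. The 6 glial genes summed to 3.43 to 18.6 CPM and to 3546, 3232 and 3606 CPM, nearly all of it Gs2. Of the other glial markers, the defining gene repo stood at 0.0445 to 0.485 CPM in the tumours against 0.9101, 0.168 and 9.02 CPM after metamorphosis, moody and Eaat1 were higher in each metamorphed sample than in each tumour, alrm overlapped, and wrapper was at 0 except for 0.140 CPM in metamorphed sample 2. The 7 haemocyte (blood cell) genes summed to 21.7 to 94.2 CPM and to 449, 635 and 414 CPM, mostly crq with 13.9 to 85.5 CPM and 295, 465 and 351 CPM. Genes of cuticle-forming epidermis summed to 32.7 to 157 CPM and to 4077, 5546 and 6121 CPM, with ple at 2240, 4171 and 3140 CPM of the latter. The muscle sum spanned 187 to 1142 CPM in the tumours, highest in the second 14-week tumour, and stood at 426, 170.1 and 1313 CPM in the metamorphed samples. Mlc2 alone took 148 to 1036 CPM of it in the tumours and 108, 32.9 and 416 CPM in the metamorphed samples. Mhc, Act88F, up, bt and Tm2 were higher in each metamorphed sample than in each tumour, while Mlc2, Act57B and sls overlapped. The sum of the neuronal genes overlapped between the groups, with 49.8 to 105 CPM and 62, 108 and 58.7 CPM, but its members moved apart. nSyb, Syt1 and fne were higher and Snap25 lower in each metamorphed sample than in each tumour, while elav, brp and Syn overlapped. Adult gut genes were at or near 0 except in metamorphed sample 2. These values stand here for the gene groups below that they touch, and their part in those results was not tested. In bulk RNA, fewer cells of a type and less RNA per cell cannot be told apart.

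**Figure D1:**
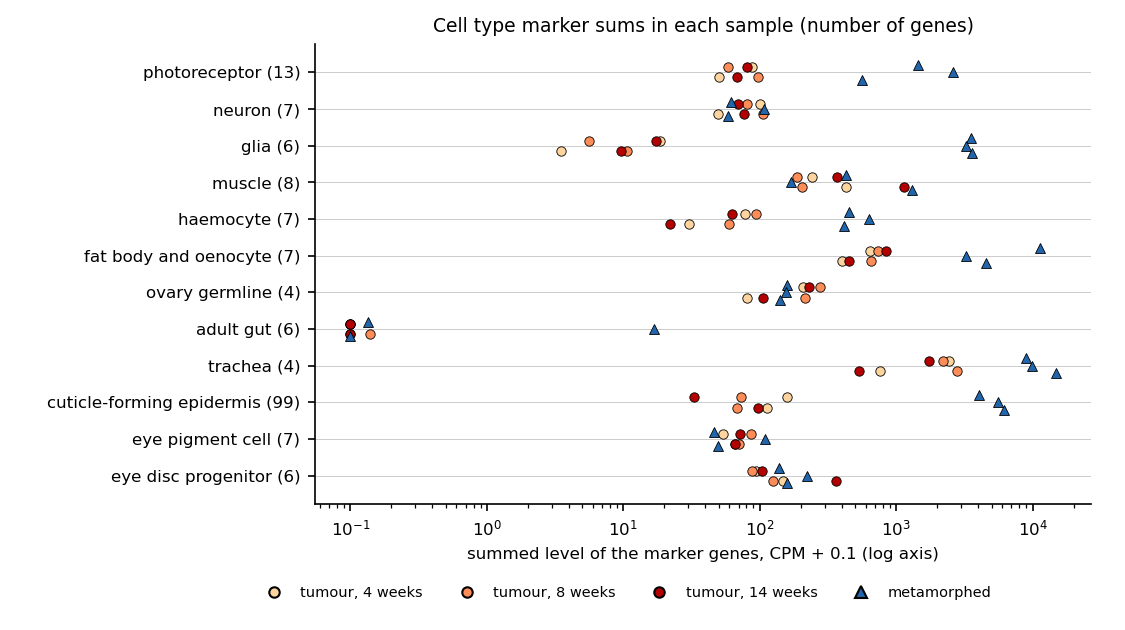
Summed CPM of the marker genes of 12 cell types in each of the 9 samples, on a log axis after adding 0.1 CPM. Circles are tumours, filled by age, and triangles are metamorphed samples. Photoreceptor, glial, haemocyte, fat body, trachea and epidermis sums of the 3 metamorphed samples lie above all 6 tumours, while the neuronal, muscle, germline, eye pigment and eye disc progenitor sums overlap.

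Across 9362 genes with at least 1 CPM in at least 2 of the 9 samples, 4489 differed between metamorphed cells and the equal mean of the 3 tumour ages (limma on log2(CPM + 1), Benjamini-Hochberg adjusted p of 0.05). Of these, 2776 genes were higher in metamorphed cells, 29.7% of those tested, and 1713 were lower, 18.3%. These shares are the background for every gene list below. A list whose members are near 0 in the tumours passes the filter largely through the metamorphed samples. Its share of higher members is then partly fixed by the filter. Median tumour levels were 0 CPM for cuticle proteins, 0.21 for antimicrobial peptides and 0.23 for UDP-glycosyltransferases. They were 0.25 for phototransduction, 0.43 for sarcomere and 0.51 for cytochrome P450 genes. For neuronal, tanning and melanin, and glial genes they were 1.33, 1.47 and 2.68. The 3 metamorphed samples lay all above or all below the 6 tumours for 3647 of the 4489. Over all genes tested, whether called or not, they lay all above in 25.7% and all below in 15.3%. The genes named below as rising or falling are free of such overlap unless an overlap is stated. Large changes went mostly upward, since 1036 genes rose and 266 fell by a log2 fold change of at least 3. Among the genes called, 449 higher ones had no read in any tumour and 107 lower ones had no read in any metamorphed sample. The split between higher and lower depends on the scaling. Higher genes made up 61.84% of the calls here, 43.18% with quantile normalization and 51.13% after the trend of each sample with transcript length was removed. Over all genes tested the log2 fold change had a median of 0.15 here, of -0.27 after quantile normalization and of -0.03 when CPM were taken over total reads, and a change of a gene is to be read against these shifts. Fold changes on the log2(CPM + 1) scale understate the change of genes at low levels.

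Against single ages, 3864 genes were called against 4-week tumours, 41.3% of those tested, with 2457 higher and 1407 lower. Against 8-week tumours 2961 were called, 31.6%, with 1944 higher and 1017 lower. Against 14-week tumours 3643 were called, 38.9%, with 2228 higher and 1415 lower. These 3 comparisons share the metamorphed samples and each has 2 tumours. Without the second 4-week tumour, 2561 genes were called against the remaining 4-week tumour in place of 3864. Without the first or the second 8-week tumour, 1746 and 1832 were called against that age in place of 2961. On the log2 scale, samples correlated across genes at 0.915 to 0.920 within the metamorphed cells, at 0.895 to 0.974 within the tumours and at 0.584 to 0.656 between the groups. Genes are not independent replicates, and these correlations are a description.

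**Figure D2:**
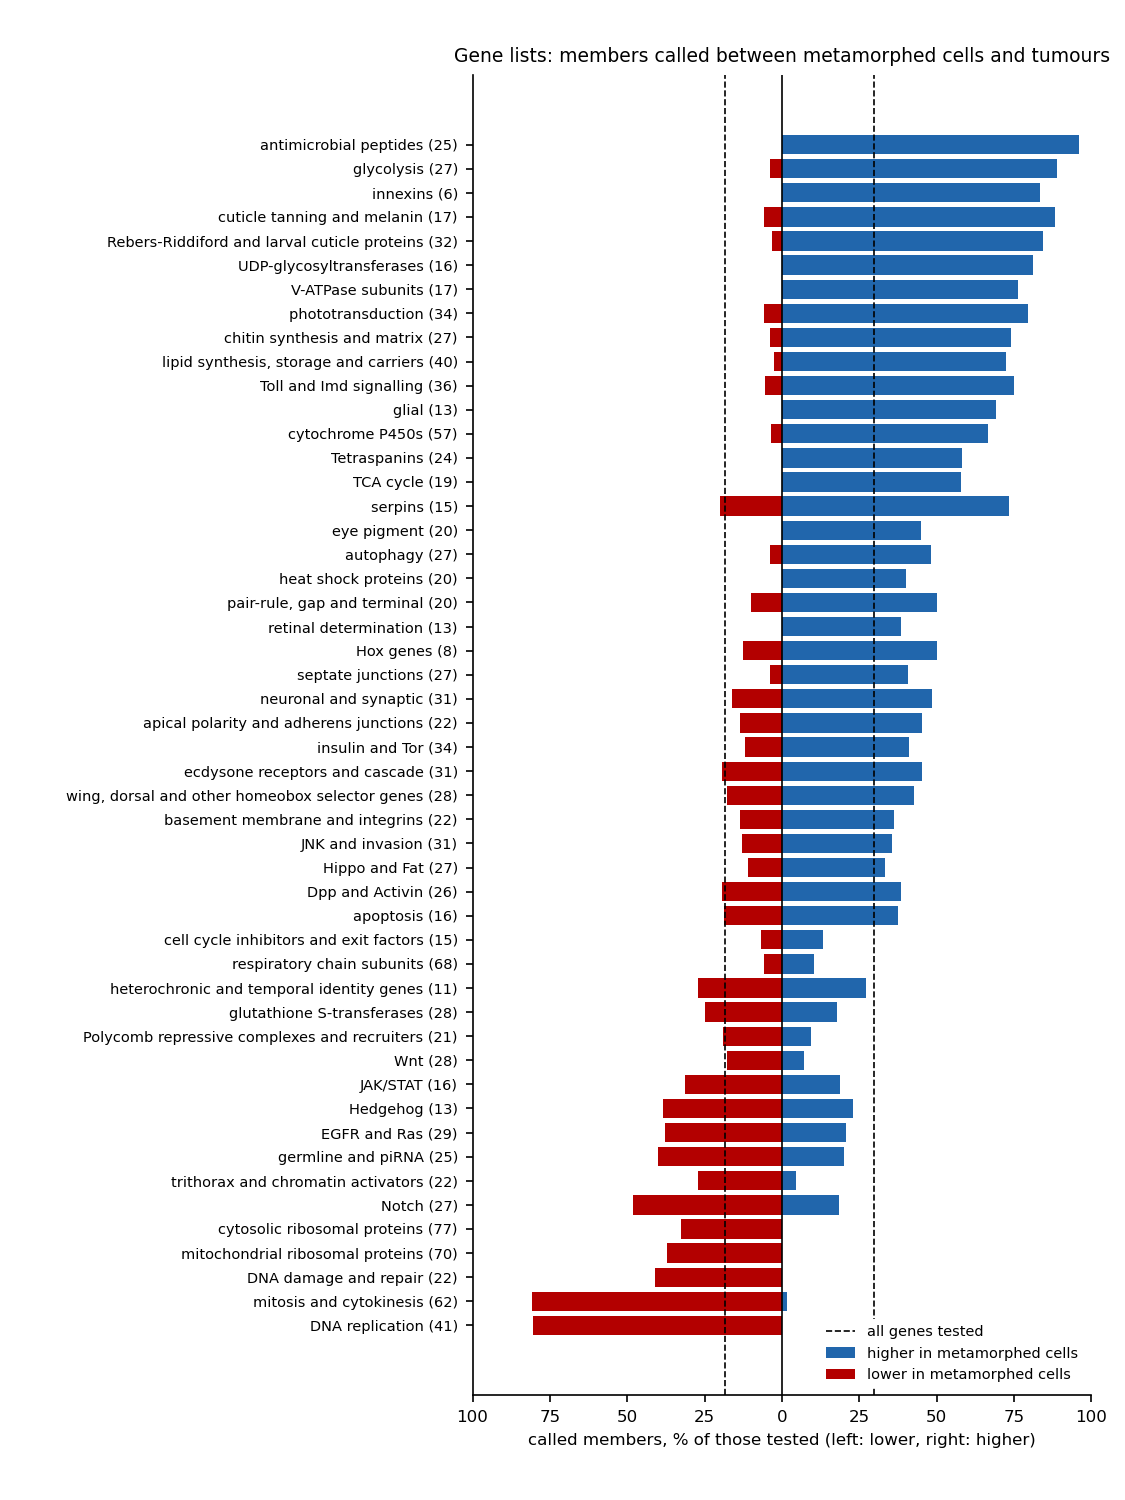
Share of tested members called higher (right) and lower (left) in metamorphed cells than in tumours for each gene list, with the number tested after the name. Dashed lines give the background over all genes, 29.7% higher and 18.3% lower, and the DNA replication and mitosis lists reach furthest to the left while antimicrobial peptides reach furthest to the right.

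Among genes with a mean of at least 10 CPM in the higher group, no overlap between groups and a called difference, the 15 largest increases and decreases are given here. CG8483, a gene known by its annotation number, rose from 0, 0.718 and 4.04 CPM (here and below the lowest, the median and the highest of the 6 tumours) to 7446, 13348 and 22899 CPM in metamorphed samples 1, 2 and 3 (log2 fold change 12.84, SE 0.44, adjusted p = 3.0e-08). CG6409 followed with 0, 0.0611 and 0.223 CPM in the tumours and 7447, 6528 and 6659 CPM in the metamorphed cells. The groups were thus far apart for both genes, in every sample. Gs2, the gene for glutamine synthetase 2, which makes glutamine from glutamate, went from 0, 0 and 0.606 to 3394, 3050.3 and 3456 CPM (log2 fold change 11.52, SE 0.34, adjusted p = 1.5e-08). ple (pale) encodes tyrosine hydroxylase, which makes DOPA for cuticle tanning and for dopamine, and it rose from 0.0445, 2.16 and 8.25 to 2239.9, 4171 and 3139.6 CPM. The tetraspanin gene Tsp74F stood at 0, 0.664 and 7.65 CPM in the tumours but at 2236, 1613 and 2316 CPM after metamorphosis. The odorant binding protein gene Obp99b rose from 0, 0 and 6.503 to 1107, 929 and 1115 CPM. Others among the 15 largest increases were CG8785, Bbd, CG5397, GV1, CG9812, e, CG2930, NAAT1 and the unnamed identifier FBgn0031629.

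Among the decreases, tum (tumbleweed), a component of the central spindle, polo, the Polo kinase, and Incenp, a subunit of the chromosomal passenger complex, were 3 of the 15 largest. The others included MFS3, Cks30A, rdo, the piRNA gene mael, the transcription factor genes ab, fru and zld, the secreted ligand gene Wnt4, the receptor gene Toll-7 and the Notch targets E(spl)mgamma-HLH and E(spl)m3-HLH. The remaining place was held by FBgn0267727, an identifier without a symbol. Per kilobase of the longest transcript, the highest level of a protein-coding gene in metamorphed cells belonged to Msr-110, with 13770 CPM per kilobase against 42.8 in the tumours. In the tumours the highest level per kilobase was that of the tetraspanin gene Tsp42Ee, with 7564 CPM per kilobase against 5667 in metamorphed cells (log2 fold change -0.31, SE 0.43, adjusted p = 0.58), so the top gene of the tumours stayed among the 3 highest.

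Of 11 tested heterochronic and temporal identity genes, 3 rose, 3 fell and 5 did not pass the test. Risers and fallers were 27.3% each, against a background of 29.7% and 18.3%. Eip93F (chromosome 3R, 21949114 to 22014539, dm6 assembly) stood at 228, 237 and 231 CPM in metamorphed samples 1, 2 and 3 and at 0, 0.256 and 1.63 CPM in the tumours. It was thus at most 1.63 CPM in the tumours, highest in the second 14-week tumour, and level across the metamorphed samples (log2 fold change 7.39, SE 0.42, adjusted p = 4.3e-07). Blimp-1, a zinc finger repressor in the prepupal part of the ecdysone cascade, went from 0, 0 and 1.42 to 123, 123 and 169 CPM (log2 fold change 6.89, SE 0.42, adjusted p = 5.8e-07). chinmo (chromosome 2L, 1651258 to 1704682), a BTB zinc finger gene of the larval state, went the other way, from 937, 1533 and 3312 CPM in the tumours to 199, 211 and 267 CPM (log2 fold change -2.84, SE 0.28, adjusted p = 1.6e-05). Its metamorphed samples lay below every tumour but were not at the floor. ab (abrupt; chromosome 2L, 11210678 to 11261080), another BTB zinc finger gene, fell from 961, 1473 and 2848 to 4.997, 16.2 and 13.1 CPM (log2 fold change -7.05, SE 0.38, adjusted p = 3.0e-07). The related gene mamo fell by a smaller amount, with 375, 453 and 1126 CPM in the tumours and 183, 193 and 218 CPM in the metamorphed samples (log2 fold change -1.34, SE 0.30, adjusted p = 0.0041).

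**Figure D3:**
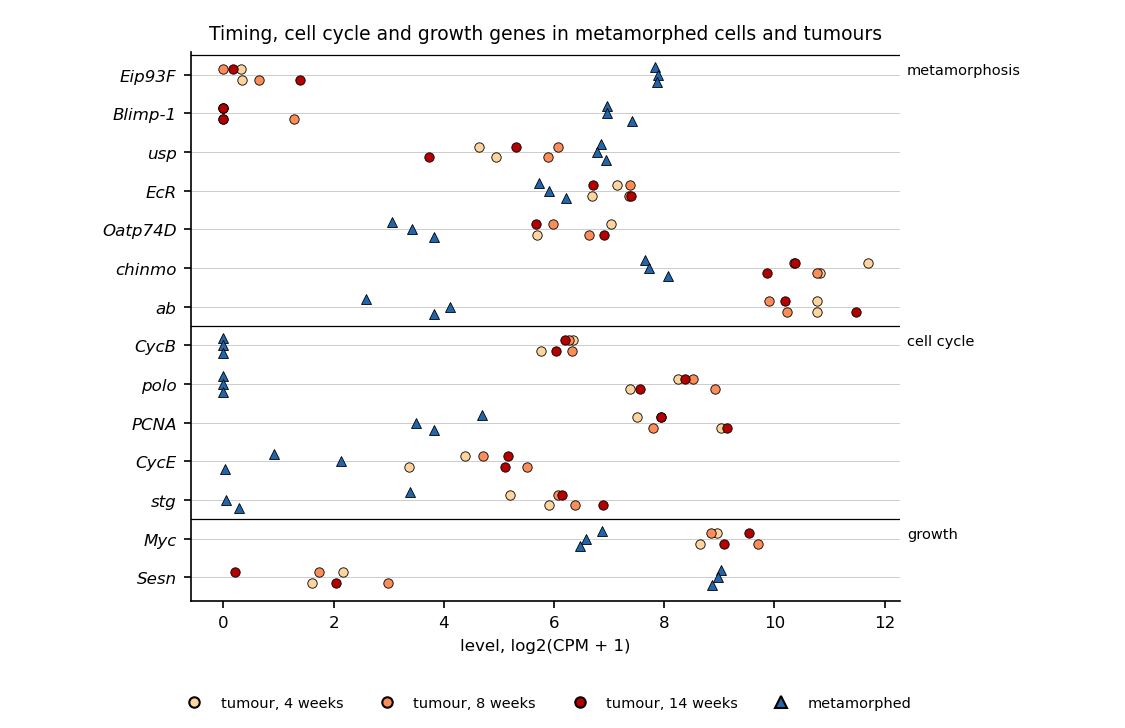
Level of 14 genes of metamorphosis, cell cycle and growth in each sample, as log2(CPM + 1). Circles are tumours, filled by age, and triangles are the 3 metamorphed samples, and the groups do not overlap for any of the 14 genes.

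The host transcript of the let-7 complex, lncRNA:let7C, which carries the heterochronic microRNA let-7 with miR-100 and miR-125, stood at 4.11, 1.98 and 1.97 CPM in metamorphed samples and at 0, 0 and 0.607 CPM in the tumours. The difference passed the test (log2 fold change 1.72, SE 0.36, adjusted p = 0.0027) but not with quantile normalization (0.74, adjusted p = 0.10). The libraries hold polyadenylated RNA, so this is the precursor and not the mature microRNA. lin-28, whose product restrains let-7 processing in animals, did not pass the test, with 0, 3.27 and 0 CPM against 0, 1.26 and 2.37 CPM (log2 fold change -0.35, SE 0.54, adjusted p = 0.61).

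Within the ecdysone list, 14 of 31 tested members were higher and 6 lower, with a median log2 fold change of 0.92, or 1.12 when genes without a read in a group are set at the bound of the 3-read floor. The partners of the receptor moved apart. EcR, the ecdysone receptor, fell from 102, 152 and 168 to 52.3, 59.1 and 73.6 CPM (log2 fold change -1.16, SE 0.26, adjusted p = 0.0043). Its partner usp rose from 12.3, 34.4 and 66.5 to 114, 109 and 123 CPM (log2 fold change 1.76, SE 0.35, adjusted p = 0.0021). The importer of ecdysone into cells, Oatp74D, fell from 50.2, 80.4 and 130.1 to 7.35, 9.74 and 13.1 CPM (log2 fold change -2.89, SE 0.41, adjusted p = 0.00022), and the coactivator tai fell with a log2 fold change of -1.18. Early genes of the cascade rose, with 2.61 for Eip74EF, 1.66 for Eip75B and 2.24 for Sox14 (adjusted p of 0.00018, 0.0016 and 0.00014). The mid-prepupal competence factor ftz-f1 fell from 173, 222 and 310.2 to 21.7, 29.02 and 108 CPM (log2 fold change -2.39, SE 0.44, adjusted p = 0.0012). gce, a juvenile hormone receptor, rose from 0, 0 and 0.334 to 49.9, 29.2 and 35.3 CPM (log2 fold change 5.18, SE 0.38, adjusted p = 1.7e-06), whereas its paralogue Met did not pass the test (log2 fold change 0.45, SE 0.44, adjusted p = 0.42). E23, a transporter that lowers the ecdysone response, and DopEcR, a membrane receptor for dopamine and ecdysone, rose with log2 fold changes of 3.19 and 2.25. The ecdysone 26-hydroxylase gene Cyp18a1 had a log2 fold change of -0.51 and did not pass (adjusted p = 0.44).

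Genes of cell division were lower after metamorphosis. Of 41 tested genes of DNA replication, 33 fell and none rose, with a median log2 fold change of -2.55. Of 62 tested genes of mitosis and cytokinesis, 50 fell and 1 rose, with a median of -2.90. CycB, the mitotic Cyclin B, had no read in the metamorphed samples and stood at 53.3, 74.2 and 80.1 CPM in the tumours, which is at least 1325-fold lower when CycB is set at the floor of 3 reads in the metamorphed library where that floor is highest. Bounds below take the highest floor of a single library of the group in the same way, against the mean of the other group. polo likewise had no read in metamorphed cells and 165, 318 and 483 CPM in tumours, at least 5722-fold lower, and Incenp stood at 0 and 110.1, 191 and 304 CPM. tum fell from 125, 406 and 589 to 0, 0.224 and 0 CPM. Its partner pav (pavarotti, a central spindle kinesin) fell from 72.8, 131 and 228 to 0, 8.88 and 0 CPM. The checkpoint kinase BubR1 and the kinetochore gene Ndc80 had log2 fold changes of -6.08 and -5.04.

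Genes of the replication fork fell as well. PCNA, the sliding clamp, went from 179.8, 245 and 561 to 24.8, 10.3 and 13.2 CPM (log2 fold change -4.22, SE 0.41, adjusted p = 1.4e-05). The helicase subunit genes Mcm5 and Mcm7 had log2 fold changes of -4.30 and -3.57, and the licensing gene Cdc6 of -4.28. CycE, which drives entry into S phase, fell from 9.26, 29.5 and 44.4 to 0.892, 3.36 and 0.0164 CPM. Its kinase Cdk2 fell by 3.71 on the log2 scale. stg (string), the Cdc25 phosphatase that opens mitosis, fell from 35.7, 68.03 and 117 to 9.42, 0.02803 and 0.213 CPM (log2 fold change -4.87, SE 0.67, adjusted p = 0.00017). Some members did not follow. Grip84, a gamma-tubulin ring subunit, was the only called riser of the mitosis list (log2 fold change 2.03, SE 0.27, adjusted p = 0.00013), and RnrS, a subunit of ribonucleotide reductase, did not pass the test (log2 fold change -0.44, SE 0.24, adjusted p = 0.16). Of 15 cell cycle inhibitors and exit factors 2 rose, or 1 without the first 8-week tumour or metamorphed sample 1, and 1 fell, or 2 without the second 14-week tumour. fzr (Fizzy-related), an activator of the anaphase-promoting complex outside mitosis, rose from 16.8, 36.8 and 73.4 to 165, 114.8 and 71.8 CPM, with metamorphed sample 3 inside the range of the tumours (log2 fold change 1.61, SE 0.35, adjusted p = 0.0033). Rbf, the retinoblastoma homologue, did not pass the test, with 16.1, 42.2 and 23.99 CPM against 25.6, 39.6 and 50.8 CPM (log2 fold change -0.55, SE 0.36, adjusted p = 0.23).

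**Figure D4:**
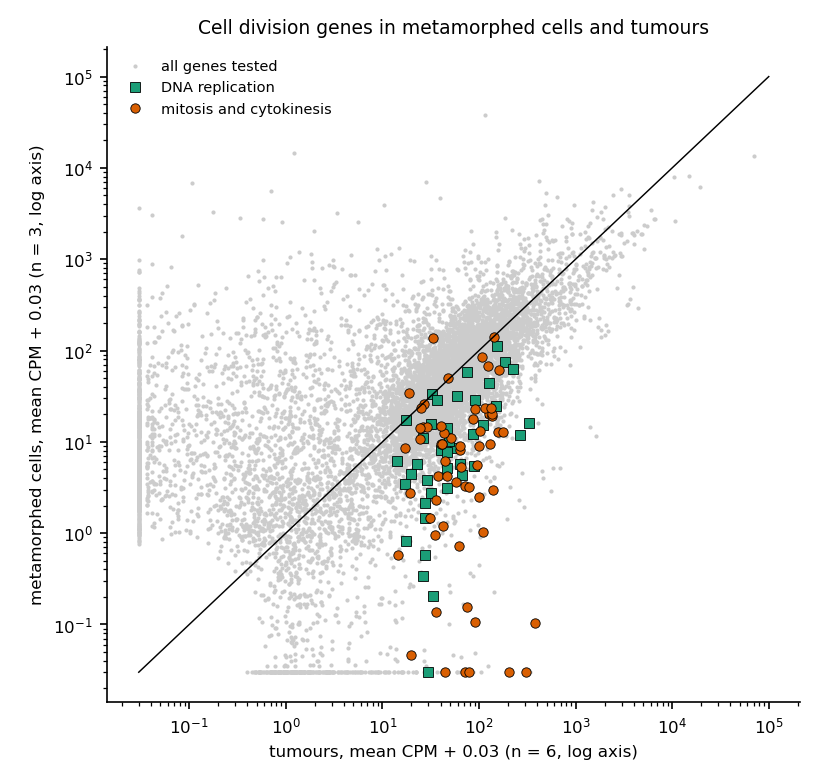
Mean CPM in the 3 metamorphed samples (vertical) against mean CPM in the 6 tumours (horizontal), both on log axes after adding 0.03 CPM. Grey points are all 9362 genes tested, and coloured points are the DNA replication and the mitosis and cytokinesis lists, which lie mostly below the diagonal of equal level.

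Among genes of DNA damage and repair, 9 of 22 fell and none rose, with a median of -1.30, and the count fell to 5 without metamorphed sample 3. p53 fell from 47.6, 59.7 and 107 to 0.0714, 9.95 and 22.04 CPM (log2 fold change -3.38, SE 0.79, adjusted p = 0.0052). In the apoptosis list 6 of 16 tested members rose and 3 fell, or 37.5% and 18.8% against a background of 29.7% and 18.3%. Members with opposite roles were among the risers. The initiator caspase gene Dronc went from 31.8, 48.5 and 63.9 to 334, 395 and 626 CPM (log2 fold change 3.17, SE 0.28, adjusted p = 6.5e-06). Its inhibitor Diap1 rose from 52.3, 72.5 and 128 to 423, 441 and 276 CPM (log2 fold change 2.28, SE 0.31, adjusted p = 0.00017). The proapoptotic gene hid rose with a log2 fold change of 1.35 (adjusted p = 0.0034) and the Bcl-2 family gene Buffy with 5.62 (adjusted p = 1.8e-06), while the effector caspase gene Dcp-1 fell from 26.9, 39.5 and 78.97 to 2.96, 0.0561 and 5.27 CPM (log2 fold change -3.92, SE 0.54, adjusted p = 0.00016). Of 27 tested genes of autophagy, 13 rose and 1 fell, or none fell without either 4-week tumour, the first 8-week tumour or any metamorphed sample, with a median of 0.87. The initiating kinase gene Atg1 rose from 21.5, 28.9 and 53.9 to 318, 334 and 329 CPM (log2 fold change 3.302, SE 0.29, adjusted p = 6.9e-06), its partner Atg13 by a log2 fold change of 2.87, and the membrane gene Atg9 by 1.74. Atg5 and Atg7, of the conjugation machinery, did not pass the test (-0.68 and 0.66, adjusted p of 0.11 and 0.25).

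Among regulators of growth, several inhibitors of Tor, the nutrient-sensing kinase, rose. In the insulin and Tor list 14 of 34 tested members rose and 4 fell, while 9 rose without metamorphed sample 1 and 2 fell without metamorphed sample 2. Sesn (sestrin), a stress-induced Tor inhibitor, stood at 521, 502 and 469 CPM in metamorphed cells and at 0.162, 2.73 and 6.92 CPM in the tumours (log2 fold change 7.17, SE 0.48, adjusted p = 9.0e-07). Every metamorphed sample was thus far above the highest tumour for this gene. scyl (scylla), a fly homologue of the Tor inhibitor REDD1, stood at 5039, 4643 and 4898 CPM against 358, 627 and 1029.7 CPM in the tumours (log2 fold change 3.03, SE 0.29, adjusted p = 1.1e-05). The other homologue, chrb (charybde), stood at 1008, 1018 and 1016 CPM against 70.5, 122 and 214 CPM (log2 fold change 3.10, SE 0.33, adjusted p = 2.5e-05). The amino acid transporter gene slif rose as well (log2 fold change 4.13, SE 0.57, adjusted p = 0.00018). Myc, a driver of growth, fell from 398, 519 and 831 to 116, 94.2 and 87.5 CPM (log2 fold change -2.49, SE 0.27, adjusted p = 2.6e-05). Akt, the kinase that relays the insulin signal, did not pass the test (log2 fold change -0.58, SE 0.42, adjusted p = 0.27).

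Transcripts of cytosolic ribosomal proteins had a median log2 fold change of -0.82, with 25 of 77 lower and none higher. That count was not stable. It was 14 without the second 4-week tumour, 11 without the first 8-week tumour, 63 without the first 14-week tumour, 12, 5 and 10 without metamorphed samples 1, 2 and 3, 60 after quantile normalization and 48 when CPM were taken over total reads. RpL41 and RpL38, with short transcripts, had the largest decreases (-2.65 and -2.62, adjusted p of 0.0021 and 0.0020). For mitochondrial ribosomal proteins the median was -0.87, with 26 of 70 lower and none higher. That count was 16 without the first 8-week tumour, 47 without the first 14-week tumour, and 16 and 9 without metamorphed samples 1 and 2. V-ATPase subunits, of the pump that acidifies lysosomes, rose in 13 of 17 tested cases with a median of 1.54. Vha68-2 went from 196, 397 and 722 to 2588, 2991 and 2407 CPM (log2 fold change 2.81, SE 0.30, adjusted p = 2.5e-05). Replication-dependent histone genes are near-identical copies with few poly(A) tails and are not described, but the single-copy variant His2Av fell from 662, 1087 and 1516 to 119, 77.8 and 134 CPM (log2 fold change -3.304, SE 0.28, adjusted p = 5.0e-06).

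In the JAK/STAT list 5 of 16 tested members fell and 3 rose, or 5 rose without the first 4-week tumour. The ligand gene upd2 fell from 15, 23.2 and 46.5 to 0, 9.18 and 0 CPM (log2 fold change -3.58, SE 0.74, adjusted p = 0.0025). The ligand gene upd3 fell from 13.6, 32.1 and 72.99 to 4.84, 0 and 0 CPM (log2 fold change -4.17, SE 0.65, adjusted p = 0.00041), so that each ligand was read in 1 metamorphed sample only. upd1, the remaining ligand gene, had 0.0409, 4.76 and 8.47 CPM in the tumours and no read in metamorphed cells, at least 78.8-fold lower than the tumour mean. The lowest value, of the first 4-week tumour, was below its floor of 0.123 CPM. Against 4-week tumours upd1 was not called (log2 fold change -0.54, adjusted p = 0.41). The negative feedback target Socs36E fell from 126, 219 and 390.4 to 86.5, 107 and 64.2 CPM (log2 fold change -1.34, SE 0.28, adjusted p = 0.0029). The transcription factor gene Stat92E did not pass the test (279, 238 and 167 CPM against 61.2, 147 and 274 CPM, log2 fold change 0.64, SE 0.31, adjusted p = 0.11). et (eye transformer), a truncated receptor that dampens the pathway, rose with a log2 fold change of 2.96.

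**Figure D5:**
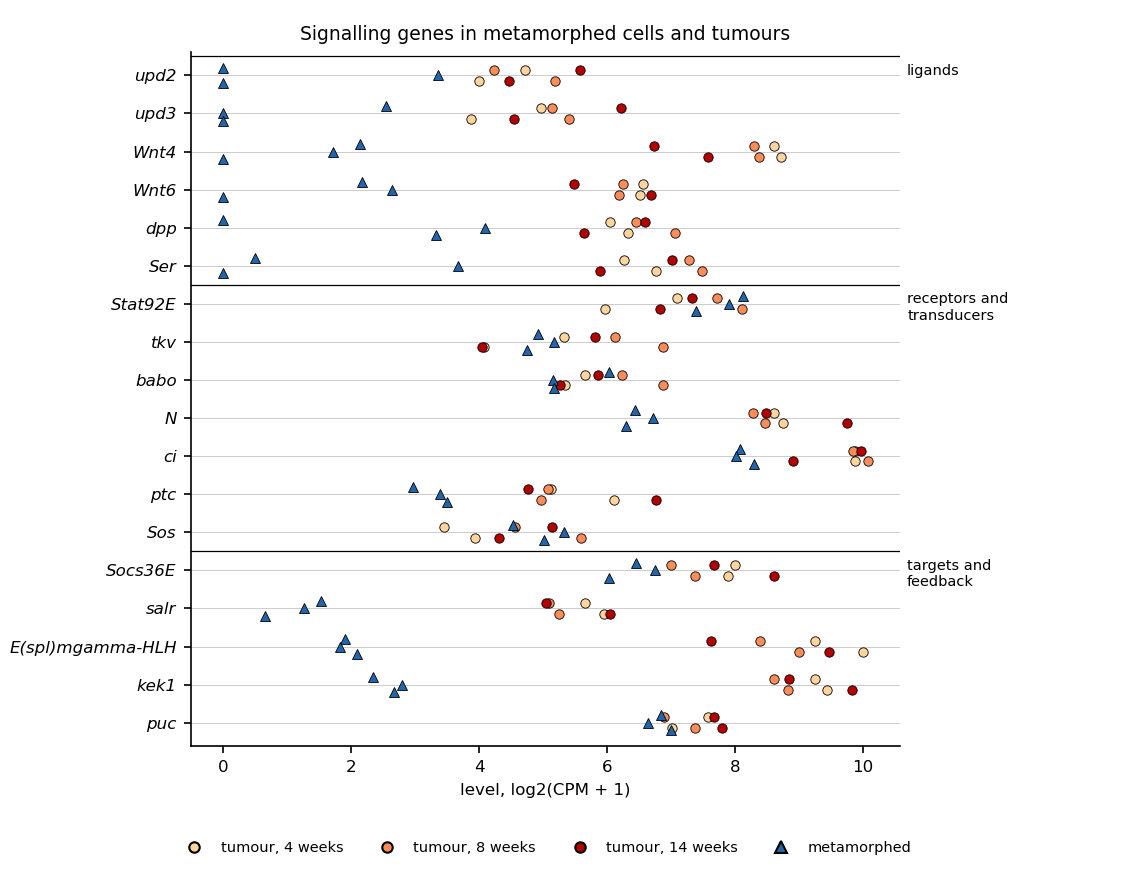
Level of 18 genes of signalling pathways in each sample, as log2(CPM + 1), with ligands, then receptors and transducers, then target genes. Circles are tumours, filled by age, and triangles are metamorphed samples. All 6 ligands shown lie lower in each metamorphed sample than in each tumour. These 6 are a selection. Of the ligand genes not shown, daw rose, while upd1, Delta and vn fell.

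In the JNK and invasion list, members changed in both directions. Across 31 tested genes 11 rose and 4 fell, with 2 falling without the second 8-week tumour, without metamorphed sample 1 or without metamorphed sample 3. These were 35.5% higher and 12.9% lower, against a background of 29.7% and 18.3%. The list median of 0.27 turned to -0.10 with quantile normalization and to -0.12 with the length trend removed. Timp, the tissue inhibitor of metalloproteinases, rose from 5.99, 31.3 and 61.9 to 1046, 1002 and 1196 CPM (log2 fold change 5.35, SE 0.47, adjusted p = 6.1e-06), a separation without overlap. The metalloproteinase genes rose as well, Mmp1 from 93.9, 152 and 231 to 270.3, 616 and 476 CPM (log2 fold change 1.54, SE 0.30, adjusted p = 0.0016). Mmp2 rose from 0.121, 1.91 and 5.58 to 16.1, 13.03 and 10.8 CPM (log2 fold change 2.46, SE 0.53, adjusted p = 0.0032). The receptor genes wgn (wengen, of the TNF receptor family) and Pvr (PDGF and VEGF receptor family) rose with log2 fold changes of 5.01 and 5.19. Ets21C, a transcription factor downstream of JNK in disc tumours, fell from 55.01, 97.6 and 131 to 5.42, 10.3 and 6.88 CPM (log2 fold change -3.49, SE 0.36, adjusted p = 2.0e-05). The JNK phosphatase gene puc, a standard readout, did not pass the test (114, 98.5 and 126 CPM against 118, 177 and 219.8 CPM, log2 fold change -0.56, SE 0.25, adjusted p = 0.083).

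In the Wnt list 5 of 28 tested members fell, near the background of 18.3%, and 2 rose, or 1 without the first 8-week tumour or metamorphed sample 2 and 4 without metamorphed sample 1. Of the ligand genes, Wnt4 fell from 105, 321 and 421 to 3.41, 2.28 and 0 CPM (log2 fold change -6.76, SE 0.45, adjusted p = 8.6e-07). Wnt6 fell from 43.7, 82.4 and 102 to 3.498, 5.24 and 0 CPM (log2 fold change -4.67, SE 0.56, adjusted p = 6.1e-05). Notum, a secreted inhibitor induced by the pathway, had no read in metamorphed cells and 13.01, 31.4 and 36.6 CPM in tumours, at least 516-fold lower. In the Hedgehog list 5 of 13 fell and 3 rose, or 1 without the first 8-week tumour or metamorphed sample 2. The transcription factor gene ci and the receptor and target gene ptc fell, with log2 fold changes of -1.63 and -2.19 (adjusted p of 0.00065 and 0.0029). In the Dpp and Activin list 10 of 26 tested members rose, or 38.5% against a background of 29.7%. The 5 that fell made up 19.2%, near the background of 18.3%. The count of risers was 6 without metamorphed sample 2. dpp, the BMP ligand, fell from 48.97, 82.9 and 132 to 0, 16.1 and 8.999 CPM (log2 fold change -3.88, SE 0.75, adjusted p = 0.0016). Its targets salr and bi fell, with log2 fold changes of -4.36 and -2.94. The receptor genes tkv and babo did not pass (-0.43 and -0.42). daw (dawdle), an Activin-like ligand gene, rose from 0, 0 and 0.485 to 8.53, 26.5 and 3.17 CPM (log2 fold change 3.21, SE 0.55, adjusted p = 0.00073).

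The Notch list had 13 of 27 tested members lower and 5 higher, with a median of -1.01, or -1.18 with genes at 0 in a group set at their bound. The receptor gene N fell from 308, 373 and 854 to 85.7, 104 and 77.6 CPM (log2 fold change -2.24, SE 0.29, adjusted p = 0.00011). The ligand gene Ser (Serrate) fell from 57.9, 118 and 178 to 0.4105, 11.7 and 0 CPM (log2 fold change -5.39, SE 0.70, adjusted p = 0.00012). The other ligand gene, Delta, fell from 16.4, 23.3 and 46.1 to 8.48, 4.23 and 6.798 CPM (log2 fold change -1.78, SE 0.39, adjusted p = 0.0034). Of the target genes of the Enhancer of split complex, E(spl)mgamma-HLH went from 195, 558 and 1018 to 2.73, 2.55 and 3.25 CPM (log2 fold change -7.01, SE 0.39, adjusted p = 3.7e-07). The other, E(spl)m3-HLH, fell from 323, 451 and 661 to 3.78, 1.696 and 6.503 CPM. The receptor, both ligands and both of these targets were thus lower in each metamorphed sample than in each tumour. The 5 risers included Su(dx), a ubiquitin ligase that limits Notch (log2 fold change 1.79, SE 0.29, adjusted p = 0.00046), and the count of risers was 2 without the first 8-week tumour, 1 without metamorphed sample 1 and 1 without metamorphed sample 2.

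For the EGF receptor pathway, 11 of 29 tested members fell and 6 rose. The ligand gene vn (vein), the protease gene rho (rhomboid), which releases other ligands, and the feedback inhibitor gene kek1 fell, with log2 fold changes of -4.24, -3.14 and -6.53. kek1 alone went from 389, 532 and 902 to 4.07, 5.91 and 5.37 CPM. csw (corkscrew), the SHP2 phosphatase, and aop (Yan), a repressor at the end of the pathway, rose with log2 fold changes of 3.62 and 1.71 (adjusted p of 6.7e-06 and 0.00051). The core genes Sos and Dsor1 did not pass (0.46 and 0.50). In the Hippo and Fat list 9 of 27 rose and 3 fell, or 1 without the second 8-week tumour or metamorphed sample 1. The 33.3% that rose were near the background of 29.7%, and the 11.1% that fell were below that of 18.3%. ft (fat), the cadherin upstream of the pathway, fell from 252, 292 and 779 to 110.2, 85.9 and 149 CPM (log2 fold change -1.64, SE 0.36, adjusted p = 0.0037), and Fbxl7, a ubiquitin ligase that acts with Fat, rose by 3.70 on the log2 scale.

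The genes that the allele disrupts were themselves transcribed in both groups. ph-p (chromosome X, 2126210 to 2138371) stood at 223, 206 and 212 CPM in metamorphed cells and at 73.5, 118 and 164 CPM in the tumours (log2 fold change 0.88, SE 0.27, adjusted p = 0.020), a call that was lost without any of the 3 metamorphed samples (adjusted p of 0.065, 0.054 and 0.054), without the first 8-week tumour (0.055), with quantile normalization (0.086), on CPM of total reads (0.070), with the length trend removed (0.070) and with a replicate block (0.083). ph-d (chromosome X, 2115727 to 2123286) stood at 131, 142 and 90.2 and 43.9, 84.9 and 132 CPM (log2 fold change 0.51, SE 0.32, adjusted p = 0.21). A transcript level says nothing of the protein of a loss of function allele. Among 21 Polycomb group genes, 4 fell, against a background share of 18.3%. The number that rose was 2, and it was 0 without the first 8-week tumour or any of the metamorphed samples, 1 without the second 4-week, second 8-week or second 14-week tumour, and 4 without the first 14-week tumour. The falling members were Sfmbt, Caf1-55, esc and escl, with log2 fold changes of -2.64, -2.44, -2.30 and -1.87. esc and Caf1-55 encode subunits of Polycomb repressive complex 2, and its catalytic subunit E(z) did not pass the test (79.7, 53.5 and 40.9 CPM against 31.7, 78.9 and 90.5 CPM, log2 fold change -0.22, SE 0.35, adjusted p = 0.63). In the trithorax list 6 of 22 fell, with psq at -1.91, and 1, the GAGA factor gene Trl, rose from 9.21, 16.97 and 32.4 to 62.1, 94.8 and 53.1 CPM (log2 fold change 1.85, SE 0.37, adjusted p = 0.0021).

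Of 8 Hox genes, 4 were higher, or 2 without metamorphed sample 3, and 1 was lower. lab (labial), a Hox gene of the head, had no read in any tumour and stood at 69.5, 36.98 and 28.5 CPM in metamorphed cells, at least 222-fold higher. Dfd (Deformed) rose from 46.2, 88.4 and 133 to 249, 448 and 251 CPM (log2 fold change 1.87, SE 0.27, adjusted p = 0.00022). Antp (Antennapedia), a thoracic Hox gene, stood at 45, 90.2 and 206 CPM in the tumours but at 0, 0 and 2.61 CPM in metamorphed samples 1, 2 and 3, so that a single metamorphed sample held all its reads (log2 fold change -5.87, SE 0.49, adjusted p = 4.6e-06). The other risers did not keep their call. Scr, whose samples overlapped (log2 fold change 1.46, SE 0.46, adjusted p = 0.024), did not pass without the first 8-week tumour (adjusted p = 0.055) or without metamorphed sample 2 or 3 (0.13 and 0.11), and pb (log2 fold change 1.08, SE 0.29, adjusted p = 0.011) did not pass without metamorphed sample 3 (0.052). The posterior Hox gene Abd-B did not pass, with 372, 226 and 232 CPM against 135, 179 and 216 CPM (log2 fold change 0.60, SE 0.25, adjusted p = 0.069).

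Among selector and segmentation genes, both directions occurred. en (engrailed), the selector of posterior compartments, rose from 2.03, 9.84 and 33.8 to 205, 216 and 185 CPM (log2 fold change 4.38, SE 0.41, adjusted p = 9.2e-06). Its neighbour and paralogue inv (invected) rose from 5.42, 10.2 and 32.1 to 176, 226 and 159 CPM (log2 fold change 3.77, SE 0.32, adjusted p = 4.8e-06). C15, a homeobox gene of the distal leg, went from 3.93, 7.83 and 13.3 to 829.7, 779 and 606 CPM, and eve (even-skipped) rose with a log2 fold change of 3.00. tin (tinman), the heart homeobox gene, fell from 39.3, 100.4 and 118 to 8.74, 2.61 and 10.2 CPM (log2 fold change -3.58, SE 0.42, adjusted p = 5.1e-05), and disco, a leg gene, fell by 2.74 on the log2 scale. zld (Zelda), the pioneer factor of the early embryo, fell from 70.4, 108 and 207 CPM in the tumours to 1 read in all 3 metamorphed samples together, with a ratio of the tumour mean to the metamorphed mean of 22478 with a 95% counting interval of 4034 to 887825. In the wing and homeobox selector list as a whole 12 of 28 rose and 5 fell, or 3 without the second 8-week tumour or metamorphed sample 1. In the pair-rule, gap and terminal list 10 of 20 rose and 2 fell.

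Eye genes differed by kind. Phototransduction genes rose, and the photoreceptor sum, which holds some of the same genes, is not a separate result. The sum of eye pigment cell genes overlapped, with 54.1 to 86.3 CPM in the tumours and 46.5, 108.5 and 49.4 CPM in the metamorphed samples. Most of it was w, at 53.8 to 85.95 CPM and 46.2, 70.9 and 32.7 CPM. santa-maria was higher in each metamorphed sample, while w, cn, bw, st, v and ninaG overlapped. The sum of eye disc progenitor genes overlapped too, with 88.01 to 363 CPM and 139.5, 223 and 159.6 CPM. Most of it was Optix, at 58.1 to 334 CPM and 82.9, 132.5 and 98.4 CPM. In that sum toy, so and eya were higher in each metamorphed sample than in each tumour, while ey, dac and Optix overlapped. Of 34 tested phototransduction genes 27 were higher and 2 lower, with a median of 4.08, or 4.67 with genes at 0 in a group set at their bound. ninaE, the major rhodopsin, had no read in any tumour and stood at 698, 1245 and 213 CPM in metamorphed samples 1, 2 and 3, at least 3536-fold higher, and highest in sample 2. Arr2 (arrestin 2) rose by a log2 fold change of 7.48, and trp, the light-activated channel, had no read in any tumour and 55.4, 171 and 12.8 CPM in metamorphed cells, whereas the phospholipase gene norpA did not pass the test (53.2, 66.97 and 40.7 CPM against 47.5, 66.6 and 91.2 CPM, log2 fold change -0.34, SE 0.32, adjusted p = 0.40). Genes of retinal determination rose in 5 of 13 tested cases, or 38.5% against a background of 29.7%. In the eye pigment list 9 of 20 rose, or 5 without metamorphed sample 2. eya (eyes absent) went from 0.0404, 0.163 and 1.22 to 10.01, 17.7 and 8.11 CPM (log2 fold change 3.25, SE 0.41, adjusted p = 9.0e-05). toy (twin of eyeless) rose from 0.0404, 0.214 and 0.612 to 10.1, 17.1 and 15.8 CPM (log2 fold change 3.57, SE 0.37, adjusted p = 2.0e-05). ey (eyeless) did not pass (0, 5.77 and 0 CPM against 0.401, 4.26 and 11.3 CPM, log2 fold change -1.07, SE 0.93, adjusted p = 0.36). The pan-neuronal gene elav did not differ beyond the spread of the samples, with 19.9, 37.5 and 26.2 CPM against 24.4, 36.6 and 51.5 CPM (log2 fold change -0.40, SE 0.33, adjusted p = 0.35). Of 31 neuronal genes 15 rose and 5 fell, with tau at 6.92 and Snap25 at -3.04. The neuroblast gene dpn (deadpan) stood at 1.98, 2.94 and 10.4 CPM in the tumours and had no read in metamorphed cells, at least 74.95-fold lower. Of 13 glial genes 9 rose, among them Eaat1, the glutamate transporter, and moody, a receptor of the blood-brain barrier (5.63 and 4.38). Both are also members of the glial sum.

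Genes of the cuticle rose. The epidermal marker sum holds some of the same genes, with ple, Ddc, kkv and the Cpr genes, and is not a separate result. Of 17 tested genes of tanning and melanin, 15 rose and 1 fell (median 3.96, or 4.38 at the bound). Of the 25 matched genes 8 did not pass the filter, and 4 of the 17 had no read in a whole group. The share of risers was thus partly fixed by the filter. With 1 sample left out 12 to 14 rose, and none fell without either 8-week tumour or metamorphed sample 1 or 2. Of 27 genes of chitin synthesis and matrix 20 rose and 1 fell (median 2.67). e (ebony), which makes the tanning precursor N-beta-alanyl dopamine, had no read in any tumour and 649, 1271 and 1056 CPM in the metamorphed samples, at least 4881-fold higher. Ddc, dopa decarboxylase, went from 2.14, 9.96 and 23.4 to 89.1, 193 and 149 CPM (log2 fold change 3.87, SE 0.64, adjusted p = 0.00057). Gasp, a chitin-binding protein of trachea and cuticle, rose from 0.8904, 12.6 and 116 to 6192, 5876 and 9191 CPM (log2 fold change 9.02, SE 0.66, adjusted p = 1.7e-06). The chitinase-like growth factor gene Idgf4 rose from 0.121, 11.2 and 21.3 to 4654, 3534 and 3522 CPM. kkv, the chitin synthase of cuticle, did not pass (26.8, 56.7 and 36.96 CPM against 4.403, 21.3 and 40.2 CPM, log2 fold change 1.13, SE 0.55, adjusted p = 0.11). Of 98 genes for cuticle proteins with the Rebers-Riddiford domain, 32 passed the filter on low values, 27 of those were higher and 1 was lower. Of the 32, 20 had no read in a whole group. Members read only after metamorphosis pass the filter only through those samples, so this share was largely fixed by the filter. Cpr49Ae had 288, 424 and 1440.3 CPM in metamorphed cells against 0 CPM in the tumours. Cpr100A had 698, 173 and 411 CPM against 0, 0.136 and 0.356 CPM.

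In the basement membrane and integrin list 8 of 22 tested members rose and 3 fell, or 36.4% and 13.6% against a background of 29.7% and 18.3%. The collagen genes rose, Col4a1 from 5.37, 6.41 and 20.7 to 147, 337 and 215 CPM and vkg (viking) by 4.75 on the log2 scale, along with the collagen chaperone gene SPARC (3.75), and fat body and haemocytes are known sources of these transcripts. The laminin gene LanA fell from 89.3, 185 and 274 to 79.8, 47.8 and 41.5 CPM (log2 fold change -1.67, SE 0.36, adjusted p = 0.0034). Septate junction genes had a median of 0.41, with 11 of 27 higher and 1 lower, and 7, 7, 6 and 6 higher without the first 8-week tumour, the second 8-week tumour, metamorphed sample 1 and metamorphed sample 2. Atpalpha, the sodium pump that also sits in these junctions, rose from 166, 299 and 437 to 1517, 1400.1 and 1042 CPM (adjusted p = 9.8e-05). Of 22 apical polarity and adherens junction genes 10 rose, or 6 without metamorphed sample 1 or 2, and 3 fell. baz (Bazooka, Par-3) fell from 151, 224 and 462 to 77.8, 51.1 and 64.5 CPM (log2 fold change -2.01, SE 0.24, adjusted p = 6.4e-05). sdt (stardust) rose from 13.4, 25.4 and 46.3 to 153, 249.9 and 208 CPM (log2 fold change 2.88, SE 0.31, adjusted p = 2.5e-05). shg, the E-cadherin gene, did not pass the test, with 50.3, 46.3 and 59.6 CPM against 23.7, 50.8 and 89.9 CPM (log2 fold change 0.13, SE 0.27, adjusted p = 0.71), and its estimate changed sign with the scaling. The gap junction genes rose in 5 of 6 tested cases, with ogre at 2.59 and Inx3 at 2.23, and tetraspanins rose in 14 of 24 cases.

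Genes of glycolysis, the TCA cycle and lipids were mostly higher, and those of the respiratory chain were mostly not called. The fat body sum rose as well, but it holds Fbp1 and Yp2, which are given below. Of 27 tested genes of glycolysis and sugar transport 24 rose and 1 fell, with a median of 1.93. Glut1, a glucose transporter, rose from 0, 0.0409 and 1.82 to 199, 252 and 204 CPM (log2 fold change 7.48, SE 0.44, adjusted p = 4.6e-07). Tps1, the trehalose synthase, rose from 0, 0.0223 and 2.39 to 223, 297 and 180.1 CPM (log2 fold change 7.46, SE 0.48, adjusted p = 7.3e-07). PyK (pyruvate kinase) and Pdk, which inactivates pyruvate dehydrogenase, rose by 2.24 and 3.83 on the log2 scale. The member that fell was Ldh, lactate dehydrogenase, at 20.1, 136 and 31.99 CPM in metamorphed cells and 81.4, 213 and 359 CPM in the tumours (log2 fold change -1.97, SE 0.63, adjusted p = 0.026). Its groups overlapped, and the call was lost without the second 4-week tumour (adjusted p = 0.060), the second 8-week tumour (0.052), metamorphed sample 1 (0.16) or metamorphed sample 3 (0.13). TCA cycle genes rose in 11 of 19 cases, or 7 without metamorphed sample 2, with Men (malic enzyme) at 3.63. Of 68 respiratory chain subunits 7 rose and 4 fell, with a median of -0.02, and both shares were below the background. The count of risers was 3 without the second 8-week tumour or metamorphed sample 1 and 4 without metamorphed sample 3. The count of fallers was 16 without the first 14-week tumour, 2 without the second 4-week tumour, the first 8-week tumour or metamorphed sample 1, and 1 without metamorphed sample 2 or 3. Genes of lipid synthesis, storage and carriers rose in 29 of 40 cases and 1 fell, or 2 without metamorphed sample 2 and none without metamorphed sample 3. Fbp1, the receptor for larval serum proteins and a fat body gene, had no read in any tumour and 476, 365 and 493 CPM in the metamorphed samples. The yolk protein gene Yp2, which fat body and ovary express in females, stood at 5433, 601 and 1565 CPM and was highest in sample 1.

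Among detoxification families, some rose and others divided. Of 84 cytochrome P450 genes, 57 passed the filter, of which 38 were higher and 2 lower, or 1 lower without the second 4-week tumour, either 8-week tumour, metamorphed sample 1 or metamorphed sample 3. Cyp4p1 rose from 0, 0.121 and 12.3 to 698, 845 and 854 CPM (log2 fold change 8.73, SE 0.69, adjusted p = 3.2e-06). Cyp9f2 rose from 2.1, 9.42 and 17.1 to 1110.1, 809.7 and 1016 CPM (log2 fold change 6.77, SE 0.46, adjusted p = 9.3e-07). Of 35 UDP-glycosyltransferase genes 16 passed the filter, and 13 of these were higher. No read in a whole group was found for 13 of the 57 P450 genes and 5 of the 16 glycosyltransferase genes. Glutathione S-transferases divided, with 5 of 28 higher and 7 lower, and their median of 0.12 was -0.19 after quantile normalization and -0.07 when CPM were taken over total reads. GstD9 fell from 272, 278 and 745 to 18.4, 7.904 and 21.7 CPM (log2 fold change -4.57, SE 0.42, adjusted p = 8.6e-06). GstE3 rose from 0.0404, 3.71 and 6.77 to 55.1, 92.1 and 55.8 CPM (log2 fold change 4.11, SE 0.59, adjusted p = 0.00023). Heat shock genes rose in 8 of 20 cases. Hsp26 stood at 113, 1217 and 458 CPM in samples 1, 2 and 3 against 31.8, 45.7 and 255 CPM in the tumours, with sample 2 highest and an overlap between the groups (log2 fold change 2.51, SE 0.83, adjusted p = 0.029). That call was lost without the second 4-week tumour (adjusted p = 0.065), the first 8-week tumour (0.067), metamorphed sample 2 (0.18) or metamorphed sample 3 (0.12).

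Immune genes were mostly higher, beside the rise of the haemocyte and fat body sums. Of 25 tested antimicrobial and related peptide genes 24 were higher and none lower, with a median log2 fold change of 4.38, or 5.32 with genes at 0 in a group set at their bound. BaraA1 rose from 0, 0.535 and 1.06 to 553, 852 and 529.9 CPM (log2 fold change 8.72, SE 0.40, adjusted p = 1.2e-07), a member of a family with near-identical copies between which reads can be split. AttC (Attacin C) had no read in any tumour and 66.8, 208 and 133 CPM in metamorphed cells, at least 668-fold higher, and Mtk (Metchnikowin) rose from 0, 0.139 and 1.35 to 34.1, 34.3 and 12.1 CPM. Toll and Imd signalling genes were higher in 27 of 36 cases and lower in 2. SPE, the protease that activates the Toll ligand, rose from 0, 0.147 and 23.9 to 1128, 1119.5 and 1073 CPM (log2 fold change 8.86, SE 0.48, adjusted p = 2.9e-07). PGRP-LC, the receptor of the Imd pathway, rose from 3.999, 11.7 and 38.4 to 739, 632 and 657 CPM (log2 fold change 5.68, SE 0.47, adjusted p = 4.4e-06), and the NF-kappaB genes Rel and Dif rose by 2.49 and 2.13 on the log2 scale. The 2 that fell encode receptors of the Toll family. Toll-7 fell from 229, 392 and 814 to 9.298, 0.02803 and 5.14 CPM. Tollo fell from 41.5, 57.7 and 92.8 to 1.73, 0.0701 and 5.85 CPM. Serpins rose in 11 of 15 cases and fell in 3, with nec (necrotic), an inhibitor in the Toll cascade, at 651, 762 and 492 CPM against 0, 0.683 and 2.23 CPM.

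A set of piRNA pathway genes, which silence transposons and are best known from the gonads, was lower after metamorphosis. In the germline and piRNA list 10 of 25 tested members fell and 5 rose, with a median of -0.72. mael (maelstrom) went from 108, 136 and 197 to 0, 0.589 and 0 CPM (log2 fold change -6.92, SE 0.33, adjusted p = 1.6e-07). shu (shutdown) had no read in metamorphed cells and 20.4, 36.8 and 52.2 CPM in the tumours, at least 680.4-fold lower. spn-E (spindle-E) likewise had no read against 4.74, 13.6 and 27.98 CPM, at least 289-fold lower. nxf2, del and vret, of piRNA-guided silencing, cluster transcription and biogenesis, fell, with log2 fold changes of -5.14, -5.70 and -4.01. piwi did not pass the test, with 0.0179, 0.02803 and 0 CPM, or 3 reads, against 0, 0.345 and 4.51 CPM (adjusted p = 0.28, ratio of the tumour mean to the metamorphed mean 70.3 with a 95% counting interval of 24.04 to 341). The risers were bru1, ovo, bol, papi and tud, with log2 fold changes of 3.27, 2.90, 2.42, 1.63 and 1.43. ovo also acts in epidermal hairs and bru1 in muscle. Of the 4 germline marker genes, bam had no read in either group. osk had no read in the metamorphed samples and 0, 0.0816 and 1.56 CPM in the tumours. orb stood at 0.036, 0.827 and 0 CPM against 0, 0.661 and 2.56 CPM in the tumours. gus stood at 159, 155 and 141 CPM against 79.3, 211 and 275 CPM. All 4 overlapped between the groups. The germline sum overlapped, with 80.2 to 277 CPM in the tumours and 159, 156 and 141 CPM in the metamorphed samples, and its part in these results was not tested. fru (fruitless), a gene of the sex determination pathway with a BTB domain, fell from 568, 697 and 819 to 4.03, 3.602 and 7.64 CPM (log2 fold change -6.88, SE 0.28, adjusted p = 8.2e-08).

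The metamorphed samples differed among themselves in several tissue genes. The median SD over genes on the log2 scale was 0.44 in the 3 metamorphed samples, against 0.36, 0.23 and 0.47 in the 4-week, 8-week and 14-week pairs. Sample 3 was high in muscle genes, with Zasp66, a Z-disc gene, at 21.4, 50.9 and 554 CPM against 0, 0 and 0.8904 CPM in the tumours. Mhc (myosin heavy chain) stood at 88.02, 16.7 and 83.2 CPM against 0, 1.34 and 10.6 CPM, lowest in sample 2. Sample 2 was highest in ninaE and Hsp26 and sample 1 in Yp2, as given above. For Eip93F, Sesn and chinmo the highest metamorphed sample stood at 1.04, 1.11 and 1.34 times the lowest, against 5.85 for ninaE, 25.86 for Zasp66 and 9.04 for Yp2. The levels of these tissue genes after metamorphosis thus rest on unequal samples.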

How the data were processed

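RNA-seq of polyadenylated RNA was analysed for 6 ph505 tumour samples and 3 samples of metamorphed ph505 cells. RNA was isolated with PicoPure, libraries followed the SMARTSeq2 and Nextera XT protocols, and tumour and metamorphed libraries were sequenced on different instruments. Per the labels and the study's methods, the authors aligned reads to the dm6 assembly (TopHat 2.0.12 and Bowtie 2.2.3) and normalized them in edgeR 3.16.5 under R 3.3.1. The counting tool, the annotation and the use of strand are not given in the sources used here, so overlapping and antisense genes can share reads. The deposited values are log2 CPM with a prior count, whose mean over libraries was estimated at 2.00 reads. Removing that prior gave linear CPM, and 100.0% of values came out as whole reads within 0.1 read. The design had assumed linear CPM in the files.

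Genes with at least 1 CPM in at least 2 of the 9 samples were tested by limma 3.58.1 (R 4.3.3, mean-variance trend, 5 residual degrees of freedom) on log2(CPM + 1), with metamorphed cells and the 3 tumour ages as 4 groups. The contrast was metamorphed minus the equal mean of the ages, and the Benjamini-Hochberg adjusted p threshold was 0.05. All adjusted p-values in the text come from this fit or from its alternatives. Samples of a group are not stated to come from separate animals in every case, and p-values measure the spread between these samples. Symbols and coordinates came from an Ensembl annotation of the fly genome for 17215 of 17521 identifiers. Figures were drawn with matplotlib 3.10.9 from tables made with Python 3.11.15, pandas 2.3.3 and NumPy 2.4.6. The script was tested on simulated data.

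The comparison, its members and the 64 gene lists were chosen with earlier results of these data known. Named genes were the 15 largest increases and decreases (called, mean of at least 10 CPM in the higher group, no overlap between groups), up to 4 of the largest changes per direction in each list described, members whose role defines a pathway, ph-p, ph-d and genes the study discusses. Genes of the closing paragraph on spread among metamorphed samples were chosen after their values were seen. The alternatives were another pseudocount, filter, scaling, mean-variance model, threshold or sample set, leaving out each sample in turn, and a replicate block. Control samples were not used, other than in the alternative fit of all 12 samples.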

Additional observations from a re-analysis of the deposited data

How the results depend on the processing

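Under 24 alternatives the number of genes called stayed between 3056 and 4924, against 4489. Leaving out 1 sample gave 3481 to 4841 calls, 2188 to 2871 higher and 1293 to 1970 lower. Against single ages it gave 2561 to 4277 calls for 4-week, 1746 to 3293 for 8-week and 2518 to 3796 for 14-week tumours, and a lone sample of an age was assumed to vary like the other groups. Lower genes numbered 2798 with quantile normalization and 1050 at an adjusted p of 0.01, against 1713. At that threshold the calls against 4-week, 8-week and 14-week tumours were 2466, 1954 and 2268. limma-voom on the recovered reads called 4452 genes, no filter 4048 and a filter of 5 CPM 4142. Of 207 named genes 183 were called, and 177 of these kept direction and call in all 24 alternatives. The others were lncRNA:let7C, ph-p, Ldh, Hsp26, Scr and pb. shg, not called, changed sign under quantile normalization (-0.099), with the length trend removed (-0.18) and on CPM of total reads (-0.052). Of other genes not called, Stat92E passed without the first 4-week tumour (adjusted p = 0.037) and kkv without the second 14-week tumour (0.028). Atg5, Cyp18a1, RnrS and puc passed as lower under quantile normalization, and E(z), Rbf, RnrS, babo, puc and tkv did so with the length trend removed. Among 3072 recomputed list counts, 346 moved by more than 1.5 times. With the length trend removed, lower members went from 4 to 8 for Polycomb, from 6 to 12 for trithorax, from 4 to 9 for JNK and from 9 to 16 for DNA repair genes. Wnt fallers went from 5 to 11 both with the length trend removed and under quantile normalization. Septate junction risers went from 11 to 5 under quantile normalization and on CPM of total reads. Whether samples with equal replicate numbers share an origin is not known. Deviations from group means correlated on average at -0.02 for equal and 0.01 for other numbers, with single pairs from -0.28 to 0.28. With 2 samples per tumour age the deviations of an age mirror each other, so these averages cannot decide whether samples are paired. A replicate block called 3669 genes, 2384 higher and 1285 lower, with 7 in place of 25 cytosolic ribosomal protein genes and 7 in place of 11 lower EGF receptor pathway genes. Differences near the floor of 3 reads, which is higher in the tumours, were not detectable at this depth.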
